A study of Mus musculus with 12 samples.

Results

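Iron uptake, storage and heme breakdown were followed in whole blood through 8 genes chosen by name: *Tfrc* and *Steap3* for uptake, *Fth1* and *Ftl1* for storage, *Pcbp1* and *Ncoa4* for loading and emptying the store, and *Hmox1* and *Blvrb* for heme breakdown. They are carried by 18 of the 45281 probes of the Illumina MouseWG-6 v2 array. Of these, 10 probes from 6 of the genes lay above background, out of 5498 such probes and 3822 such genes on the whole array. *Tfrc* and *Hmox1* had no probe above background in either genotype. None of the 10 measurable probes passed the genotype test, which 2.73% of all measurable probes passed, so a count of 0 in 10 is near the share of the whole array. The largest fold-change among the 10 was 1.56-fold, for *Ncoa4*.

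Blood came from 3 *Pik3cg*-/- mice and from 3 wild type (WT) mice of the C57BL/6J Jax strain. The knockout disrupts the gene of the catalytic subunit of phosphoinositide 3-kinase γ, a lipid kinase of blood cells, and is not limited to 1 tissue. Their line (B6J;129-Pik3cg tm1Pngr) was backcrossed to C57BL/6J Jax and then bred as a closed colony, and the sources used here do not describe the WT mice as littermates. All 6 mice were females of 13 to 16 weeks on the same diet, and no treatment was given. The comparison asked which transcripts differ in blood without the kinase. Mice are lettered A to C within a genotype, and the labels do not say that a letter ties a knockout mouse to a WT mouse. Each mouse was measured on 2 technical arrays from separate labelling reactions of 1 RNA extract, so n is 3 mice per genotype.

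Most iron in blood is carried in heme. Maturing red cells take up transferrin-bound iron through the transferrin receptor, reduce it in the endosome and pass it to the mitochondrion for heme synthesis, while iron not in use is held in the ferritin shell. Macrophages break heme down again and return the iron. Cytosolic iron regulatory proteins bind iron-responsive elements in the mRNAs of *Tfrc* and of both ferritin chains. The amount of protein thus depends on transcript level, which mRNA stability helps set, and also on translation, which the arrays do not measure.

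Detection varied more among knockout arrays (3558 to 5511 probes) than among WT arrays (4648 to 4995 probes). The 2 arrays of a mouse correlated at 0.969 to 0.981 across probes. The arrays do not check the genotype, since the brighter *Pik3cg* probe was detected on 2 arrays of each group and the other, ILMN_2564205, on none. Under background, that second probe read 6.23, 5.86 and 5.85 in knockout mice and 6.42, 6.64 and 6.72 in WT mice on the log2 scale. Across all measurable probes, 150 passed at an adjusted p under 0.05 (2.73%; limma, Benjamini-Hochberg), with 79 higher and 71 lower in knockout mice, and 1157 had an unadjusted p under that value. Without one mouse at a time, the count of called probes ranged between 40 and 344.

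The levels of cell type markers are given because blood is a mixture. The 10 platelet markers lay at a median of -2.63 in knockout mouse A, -0.84 in B and -0.59 in C on the log2 scale relative to the WT mean, against -0.32 to 0.27 in WT mice, and their summed intensity was 14175 to 42022 in knockout mice and 49050 to 70081 in WT mice. None of the 10 passed the test (lowest adjusted p = 0.068, limma). Of 16 red cell markers, 9 were measurable, and their median lay at 0.24 to 0.37 in knockout mice and at -0.10 to 0.04 in WT mice. Their summed intensities were 223973 to 232569 in knockout mice and 210132 to 218100 in WT mice. The sum includes *Hba-a1* (raw signal 69499 to 71292) and *Alas2* (69087 to 70912), near the brightest signal of the arrays (70589 to 71915). There amounts may differ without a difference in signal, which limits the sum. Of the 9 markers, 8 had a positive difference, as did 1755 of all 3822 measurable genes. These 8 include *Hba-a1* at 0.0002 and *Bpgm* at 0.03. 1 of the 9 passed the test, against 2.49% of all measurable genes. It was *Dmtn*, a red cell membrane skeleton gene, higher in knockout mice by 0.95 (adjusted p = 0.032, limma). *Epb42*, *Ermap*, *Klf1*, *Rhag* and *Rhd* were undetected on all 12 arrays. The 5 measurable monocyte markers, of 8, lay at -0.82 to -0.28 in knockout mice and -0.43 to 0.43 in WT mice, and none of the 8 macrophage markers was measurable. In whole blood, fewer cells of a type and less RNA per cell cannot be told apart, and the part of these cell markers in the iron gene values was not tested.

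**Figure D1:**
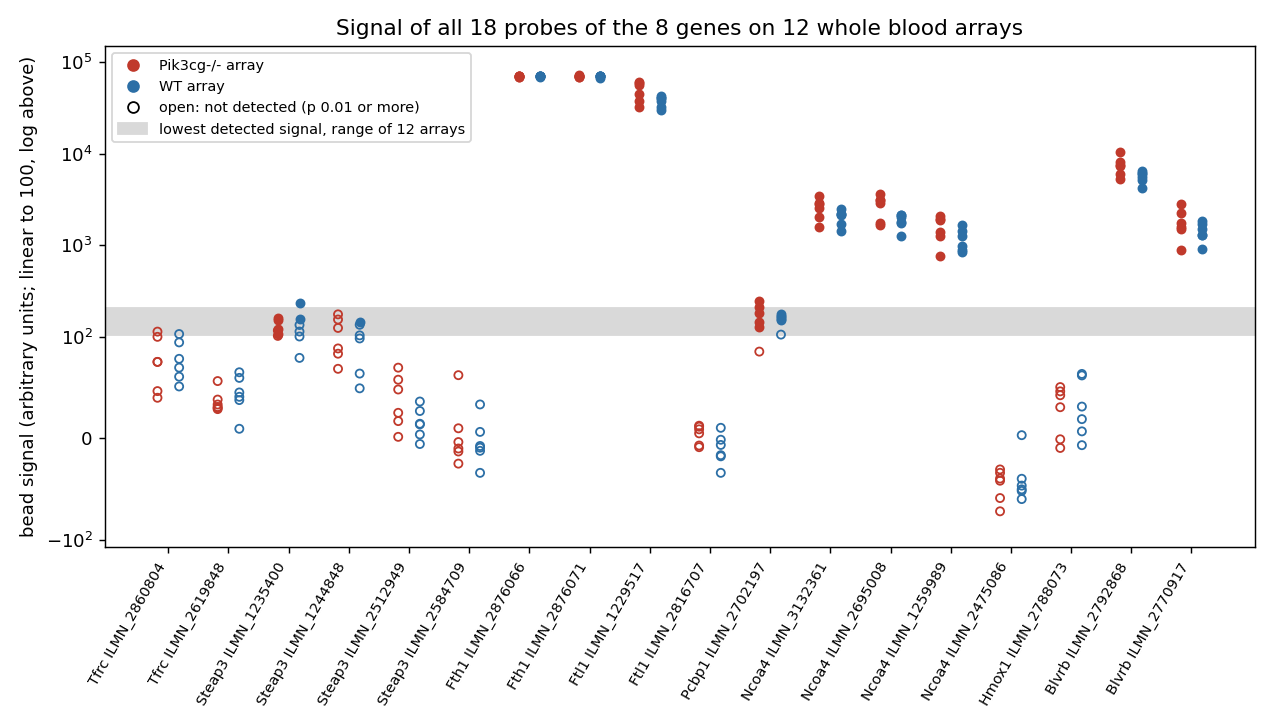
Bead signal (y axis, arbitrary units, linear up to 100 and logarithmic above) of all 18 probes of the 8 genes, with the 6 *Pik3cg*-/- arrays (red) left of the 6 WT arrays (blue) for each probe. Filled points were detected at p under 0.01, open points were not, and the grey band is the range over 12 arrays of the lowest detected signal (106 to 204). Both *Tfrc* probes and the *Hmox1* probe are open on every array, while the *Fth1* probes lie at the top of the scale in both genotypes.

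Uptake genes were at or under the detection limit. *Tfrc* (chromosome 16, 32608896 to 32632794, GRCm38.p6 as for all positions here) encodes the transferrin receptor, which brings iron-loaded transferrin into the cell. Its probe ILMN_2860804 had a log2 intensity of 6.28, 6.27 and 6.99 in knockout mice (always in the order A, B, C), against 6.57, 6.32 and 6.54 in WT mice. The raw signal reached 114 at most. The knockout values enclosed the WT values, and the detection p was 0.01 or more on all 12 arrays. Its other probe, ILMN_2619848, gave a signal of at most 65.1 and was undetected on all 12 arrays as well. No fold-change is given for *Tfrc*, because both genotypes lay under background, and its level relative to the red cell markers could not be computed.

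*Steap3* (chromosome 1, 120226414 to 120271081) encodes the endosomal reductase that converts ferric to ferrous iron in red cell precursors. Its probe ILMN_1235400 was detected on 4 of 6 knockout arrays and 2 of 6 WT arrays. Its log2 intensity was 6.87, 7.41 and 7.21 in knockout mice, against 7.08, 7.16 and 7.00 in WT mice. The groups overlapped, with knockout mouse A the lowest of the 6 and knockout mouse B the highest. The difference, knockout minus WT, was 0.08 (standard error 0.18, adjusted p = 0.836, limma). Its sign turned to -0.37 when only the second technical arrays were used and to -0.042 without knockout mouse B, so *Steap3* had no settled direction. Of its other 3 probes, ILMN_1244848 was detected on 1 array and the remaining ones on none.

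Both storage genes had a bright probe. *Fth1* (chromosome 19, 9980600 to 9985111) encodes the ferritin heavy chain, which oxidizes iron as it enters the shell. On knockout arrays its probe ILMN_2876071 gave 97.0% to 100% of the brightest signal of the array, and on WT arrays 94.7% to 99.7%. Its probe ILMN_2876066 gave 97.0% to 99.97% on knockout arrays and 96.8% to 100% on WT arrays. Both ranked among the 26 brightest probes of every array, where 22 to 35 probes reached 90% of the maximum. The log2 intensity per mouse was 16.09 to 16.11 in knockout mice and 16.08 to 16.10 in WT mice by ILMN_2876071, and 16.03 to 16.10 in knockout mice and 16.07 to 16.11 in WT mice by ILMN_2876066. The groups overlapped by both probes. At this end of the scale amounts may differ without a difference in signal, so no fold-change is given for *Fth1*.

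*Ftl1* (chromosome 7, 45457944 to 45459886) encodes the ferritin light chain, which favours the mineral core. Its probe ILMN_1229517 lay below that end of the scale, at 45.2% to 86.4% of the maximum on knockout arrays and 42.2% to 60.9% on WT arrays. The log2 intensity was 15.52, 15.52 and 15.54 in knockout mice and 15.21, 15.26 and 15.16 in WT mice. All knockout mice thus lay above all WT mice, with a spread inside each group (SD 0.0094 in knockout mice, 0.050 in WT mice) smaller than the distance between the groups. These SDs are of mouse means after quantile normalization and understate the technical spread. The technical arrays of a mouse lay up to 0.25 apart (WT mouse C), and those of knockout mouse A read 15.44 and 15.61. ILMN_1229517 was the only one of the 10 member probes without overlap, while 27.8% of all measurable probes had none. The difference was 0.32, or 1.25-fold (standard error 0.14, 95% interval -0.0081 to 0.65, adjusted p = 0.248, limma), so the call was not made.

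The *Ftl1* difference stayed positive in all 21 alternative settings, between 0.26 and 0.53, and its adjusted p ranged between 0.031 and 0.50. It passed with the authors' own log2 values (0.34, adjusted p = 0.044) and with mouse weights whose estimate did not converge (0.31, adjusted p = 0.031). In each mouse the *Ftl1* value was also taken relative to *Fth1* probe ILMN_2876071. This relative value was higher by 0.31 in knockout than in WT mice (exact permutation test over mice, two-sided, p = 0.1, the smallest p that 3 against 3 mice allow), and since *Fth1* was at the end of its scale it restates the *Ftl1* value. The median of the red cell markers, described above, also lay higher in every knockout mouse than in any WT mouse, while 4 of the 9 markers overlapped between the groups when taken singly. The second *Ftl1* probe, ILMN_2816707, was undetected on all 12 arrays. RefSeq lists 7 ferritin pseudogenes in the mouse, and whether these probes also catch their transcripts was not tested.

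**Figure D2:**
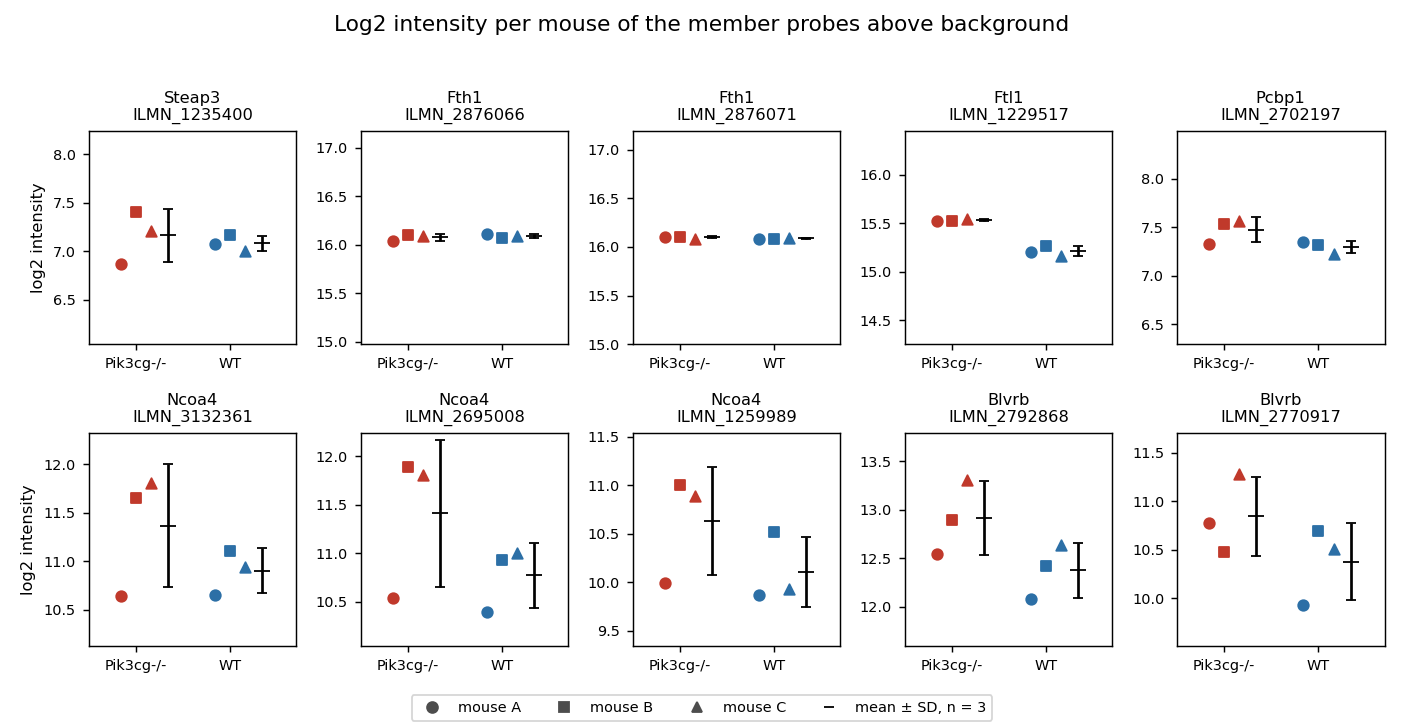
Log2 intensity (y axis; every panel spans the same 2.2 units) of the 10 probes above background, with *Pik3cg*-/- mice (red) left of WT mice (blue), 1 point per mouse, and the mean ± SD of 3 mice beside them. *Ftl1* is the only panel without overlap between genotypes, and in the 3 *Ncoa4* panels knockout mouse A sits near the lowest WT mice while knockout mice B and C lie above all WT mice.

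*Pcbp1* (chromosome 6, 86524480 to 86526189) encodes an RNA-binding protein that also delivers iron to ferritin. Its probe ILMN_2702197 was dim, detected on 5 of 6 arrays in each genotype. The log2 intensity was 7.33, 7.54 and 7.56 in knockout mice and 7.35, 7.31 and 7.22 in WT mice. Knockout mice B and C lay above all WT mice, and knockout mouse A lay inside the WT range. The difference of 0.18 did not pass (standard error 0.15, adjusted p = 0.548, limma), and it was -0.12 when only the first technical arrays were used.

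*Ncoa4* (chromosome 14, 32159879 to 32179855) encodes the receptor that hands ferritin to autophagy so that its iron is released. It was measured by 3 probes, detected on all 12 arrays. Probe ILMN_3132361 had 10.64, 11.66 and 11.80 in knockout mice and 10.65, 11.11 and 10.94 in WT mice on the log2 scale. Probe ILMN_2695008 had 10.54, 11.89 and 11.81 in knockout mice and 10.39, 10.93 and 11.00 in WT mice. Probe ILMN_1259989 had 9.99, 11.01 and 10.89 in knockout mice and 9.87, 10.52 and 9.93 in WT mice. By each probe, knockout mice B and C lay above all WT mice and knockout mouse A did not. The 3 probes read 1 gene in the same 6 mice and are not separate evidence.

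The *Ncoa4* differences were 0.46, 0.64 and 0.52 for these probes in the order given, with standard errors of 0.30, 0.36 and 0.30 and adjusted p of 0.418, 0.342 and 0.348 (limma). Only ILMN_2695008 reached 1.5-fold (1.56-fold), as did 14.8% of all measurable probes in one direction or the other. The calls turned on knockout mouse A. Without it, ILMN_3132361 differed by 0.83 (adjusted p = 0.042, limma) and ILMN_2695008 by 1.08 (adjusted p = 0.027, limma), while ILMN_1259989 differed by 0.84 and did not pass. The same omission raised the count over the whole array to 344 probes, against 150 with all mice. Without knockout mouse B the differences were 0.32, 0.40 and 0.34 in the same order of probes. Without knockout mouse C they were 0.25, 0.44 and 0.39, and neither omission gave a call. Leaving out WT mouse A gave 0.34, 0.45 and 0.40, WT mouse B 0.57, 0.72 and 0.73, and WT mouse C 0.49, 0.75 and 0.44. None of these passed. Knockout mouse A is also the mouse with the lowest platelet markers. The technical arrays of WT mouse A were 1.14 apart for ILMN_3132361, the widest gap among the 6 mice, against 0.14 in knockout mouse A. WT mouse A had the widest gap by the other probes too, 0.97 for ILMN_2695008 and 1.13 for ILMN_1259989. The technical arrays of knockout mouse A also lay further apart there than for ILMN_3132361. They read 10.76 and 10.32 for ILMN_2695008, and 9.53 and 10.46 for ILMN_1259989. With the first technical arrays alone the differences were 0.37, 0.66 and 0.14 in the same order of probes. With the second alone they were 0.56, 0.61 and 0.91. A further probe, ILMN_2475086, was undetected on all 12 arrays.

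Over the 6 mice, *Ncoa4* probe ILMN_3132361 had an SD of 0.50, the largest among the brightest probes of the members. The genes whose values followed it most closely were *Ptcd2* (Pearson's r = 0.989), *Ypel5* (0.986) and *Yod1* (0.979), out of 3821 genes searched and over 6 mice. *Yod1*, a deubiquitinase gene, had 9.04, 9.75 and 10.11 in knockout mice and 8.99, 9.42 and 9.37 in WT mice, so it too had knockout mouse A at the level of WT mouse A. These correlations were picked as the highest of many, their 6 points share arrays and normalization, and no p is given.

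Of both heme breakdown genes, only *Blvrb* was measurable. *Hmox1* (chromosome 8, 75093618 to 75100593) encodes heme oxygenase 1, which opens the heme ring and frees the iron. Its single probe, ILMN_2788073, had log2 intensities of 5.91, 6.13 and 5.49 in knockout mice and of 5.85, 5.84 and 5.84 in WT mice, with a raw signal of 63.5 at most. It was undetected on all 12 arrays, and the macrophage markers *Cd163*, *Vcam1*, *C1qa*, *C1qb*, *C1qc*, *Spic* and *Timd4* were undetected on all of them too. *Marco* was detected on 1 array. *Hmox2*, the constitutive heme oxygenase, is no member and was looked up after its values were seen. It was detected on 3 knockout and 2 WT arrays, with a difference of 0.05 (adjusted p = 0.933, limma).

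*Blvrb* (chromosome 7, 27447978 to 27465981) encodes biliverdin reductase B, an enzyme abundant in red cells that reduces biliverdin and flavins. Its probe ILMN_2792868 had 12.55, 12.90 and 13.31 in knockout mice and 12.08, 12.42 and 12.64 in WT mice on the log2 scale. Each knockout mouse lay above the WT mean, and only the lowest knockout mouse fell under the highest WT mouse. The difference was 0.54, or 1.45-fold (standard error 0.24, 95% interval -0.00026 to 1.08, adjusted p = 0.237, limma). The technical arrays of knockout mouse A read 12.95 and 12.15, the widest gap for this probe. Probe ILMN_2770917 had 10.78, 10.47 and 11.28 in knockout mice and 9.93, 10.69 and 10.51 in WT mice, a difference of 0.47 (standard error 0.27, adjusted p = 0.347, limma). By this probe knockout mouse B lay among the WT mice. The size of both differences moved with single mice. The difference of ILMN_2792868 was 0.34 without knockout mouse C. That of ILMN_2770917 was 0.25 without knockout mouse C, 0.25 without WT mouse A and 0.096 with the mouse weights that did not converge. The sign stayed positive in the settings run, and ILMN_2792868 passed only with those weights.

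Over the 10 measurable member probes, 0 passed the test and 0 had an unadjusted p under 0.05 in limma, where 150 of all 5498 measurable probes passed (2.73%) and 1157 had such an unadjusted p. By the methods' analysis of variance on the same values, 0 passed after Benjamini-Hochberg adjustment and 1 had an unadjusted p under that value. In limma the adjusted p lay between 0.237 and 0.973. By the analysis of variance, that of *Ftl1* probe ILMN_1229517 was 0.078. The fitted difference was above 0 for 9 of the 10 probes, while 46.6% of all measurable probes had a difference above 0. The median difference was 0.39 for the member probes and -0.02 for all measurable probes. These 10 include 3 probes of *Ncoa4* and a pair each of *Fth1* and *Blvrb*, and *Fth1* at the end of its scale, so the count describes these probes and is no test of the pathway.

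**Figure D3:**
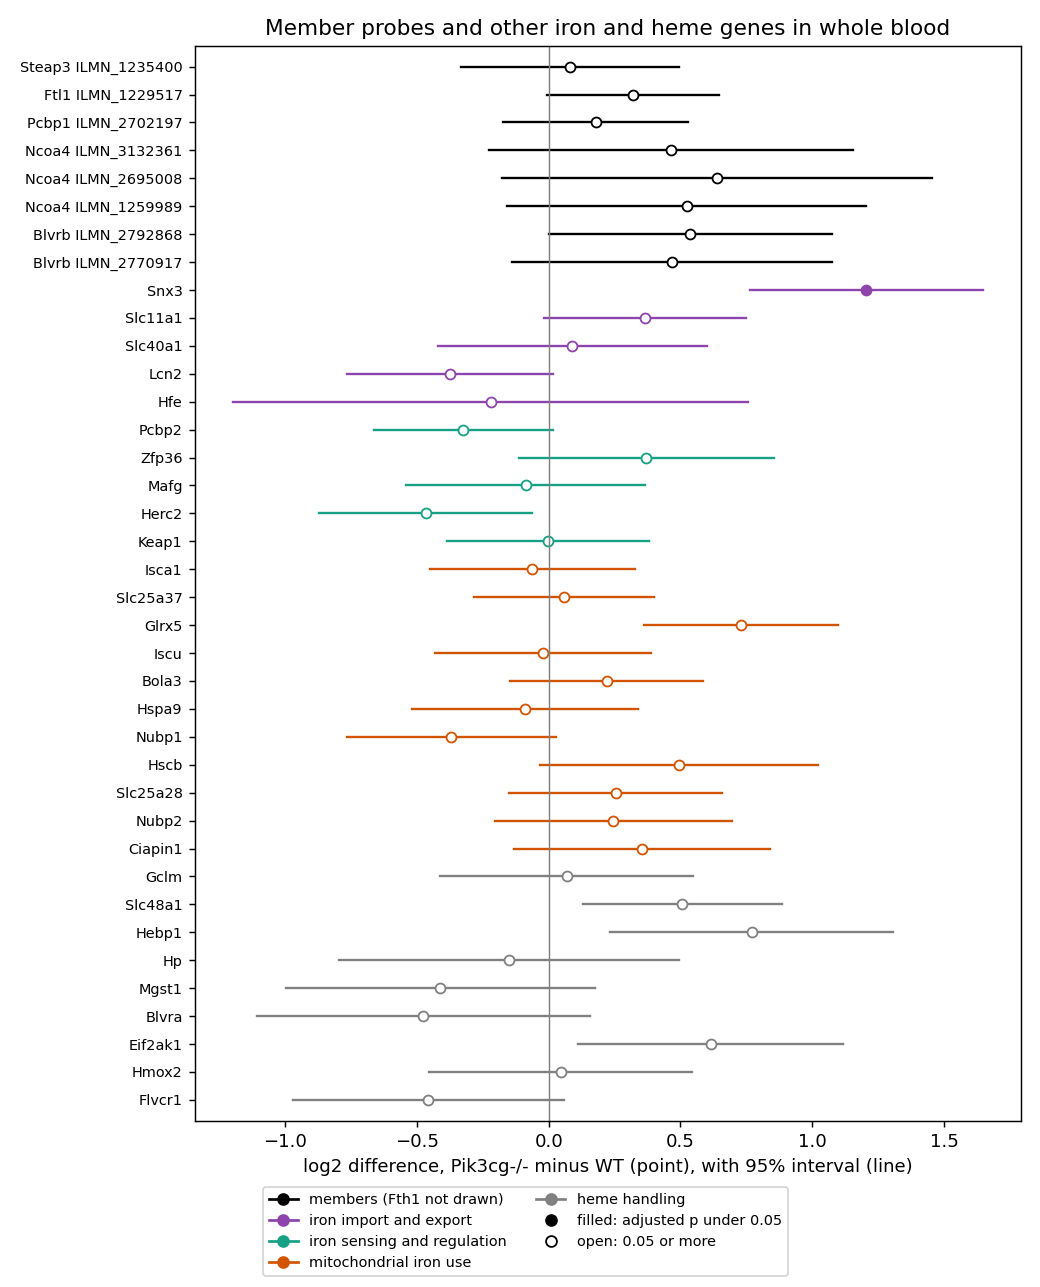
Log2 difference of *Pik3cg*-/- minus WT (x axis; points, with 95% intervals as lines) of 8 member probes and of 30 other measurable genes of iron and heme handling, 1 row each, coloured by list. Filled points have an adjusted p under 0.05, and only *Snx3*, at 1.21, is filled; the intervals of all member probes reach 0 or below.

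The other genes of the pathway were taken from 4 lists that cover iron import and export, iron sensing, mitochondrial iron use and heme handling. Of 85 such genes with a probe, 30 were measurable in blood. 1 of them passed the test, against 2.49% of all 3822 measurable genes. At least 1.5-fold higher in knockout mice were 4 of the 30 and at least 1.5-fold lower were 0, where 5.47% of all measurable genes were so much higher and 8.74% so much lower. Differences were above 0 for 16 and below 0 for 14, with a median of 0.05, against -0.03 over all measurable genes.

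The gene that passed was *Snx3*, which encodes a sorting nexin that returns the transferrin receptor to the cell surface. Its probe ILMN_1241268 had 11.00, 10.66 and 11.11 in knockout mice and 9.70, 9.96 and 9.49 in WT mice on the log2 scale. All knockout mice lay above all WT mice, and *Snx3* rose in knockout mice by 1.21, or 2.31-fold (standard error 0.19, adjusted p = 0.018, limma). The call was lost in 6 of 20 alternative settings, although the difference stayed between 0.90 and 1.51. The adjusted p was 0.099 without WT mouse A, 0.053 without WT mouse B, 0.096 without WT mouse C, 0.111 with the first technical arrays alone, 0.141 by the methods' analysis of variance and 0.054 with the letter as a block. The other *Snx3* probe, ILMN_2602128, was undetected on all 12 arrays.

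*Snx3* was also the brightest measurable gene of its list. The other brightest genes, up to 2 of each list, did not pass. In import and export, *Slc11a1*, which moves metal out of the phagosome, differed by 0.37 (adjusted p = 0.259, limma). In iron sensing, *Pcbp2*, a relative of *Pcbp1*, differed by -0.32 (adjusted p = 0.259) and *Zfp36*, which promotes mRNA decay, by 0.37 (adjusted p = 0.349). In mitochondrial use, *Isca1*, of iron-sulphur cluster assembly, differed by -0.06 (adjusted p = 0.869) and *Slc25a37*, the mitochondrial iron importer of red cell precursors, by 0.06 (adjusted p = 0.857). In heme handling, *Gclm*, a subunit of the glutathione synthesis enzyme, differed by 0.07 (adjusted p = 0.883) and *Slc48a1*, a heme transporter, by 0.51 (adjusted p = 0.139).

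The 3 other genes at least 1.5-fold higher are named because of their values. *Glrx5*, a mitochondrial glutaredoxin that passes on iron-sulphur clusters, had 15.00, 14.99 and 15.26 in knockout mice and 14.22, 14.45 and 14.38 in WT mice, a difference of 0.73 (adjusted p = 0.053, limma). *Hebp1*, a heme-binding protein gene, had 9.17, 9.25 and 10.00 in knockout mice and 8.57, 8.77 and 8.78 in WT mice, a difference of 0.77 (adjusted p = 0.121, limma). *Eif2ak1*, the kinase that slows translation when heme is short, had 7.57, 7.64 and 8.31 in knockout mice and 7.31, 7.25 and 7.11 in WT mice, a difference of 0.62 (adjusted p = 0.164, limma). Of the 30 list genes, 10 had no overlap between the genotypes, near the 28.3% of all measurable genes. Of these 10, 6 had the knockout mice above the WT mice (*Snx3*, *Glrx5*, *Hebp1*, *Eif2ak1*, *Slc48a1* and *Slc11a1*) and 4 had them below (*Pcbp2*, *Herc2*, *Lcn2* and *Nubp1*).

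**Figure D4:**
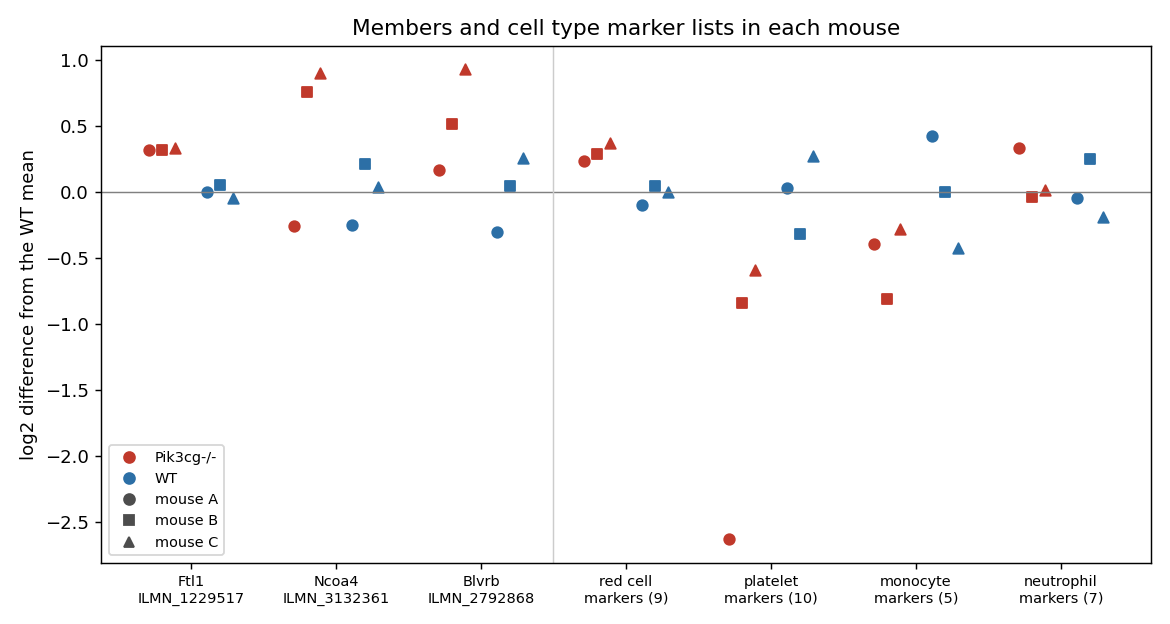
Log2 difference from the WT mean (y axis) in each mouse, with *Pik3cg*-/- mice (red) left of WT mice (blue), for 3 member probes and for the median of each marker list (number of markers in brackets). Knockout mouse A is lowest for platelet markers (-2.63) and, among knockout mice, for *Ncoa4* (-0.26), while the red cell markers and *Ftl1* are above 0 in all 3 knockout mice.

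The start regions of the ferritin genes, *Ncoa4* and *Tfrc* are shown because only these members had a match to the TATA-box core described below. They were not picked by signal. Both ferritin genes had a bright probe, *Ncoa4* varied among mice and *Tfrc* was undetected. RefSeq (GRCm38.p6) gives windows of 250 bases before to 50 bases after the start for 7 of the 8 genes, 15 windows in all, and none for *Hmox1*. They were searched for the TATA-box core TATAA on the gene strand, the CCAAT box on both strands and the antioxidant response element core TGACNNNGC on both strands. The 30 bases around each TATAA are printed below, on the gene strand with the motif in capitals.
Ftl1, chr7:45459852-45459881, minus strand: gggtcaacatgcTATAAaaggagcgctcct
Fth1, chr19:9982660-9982689, plus strand: gcaggatcccgcTATAAgtgcggcccgctg
Ncoa4, chr14:32165750-32165779, plus strand: tggccggtagggTATAAacctggccgtcga
Tfrc, chr16:32608938-32608967, plus strand: gtggggccgagcTATAAgctttgggtggga
The motif begins 18 bases into the transcript of *Ftl1* and 27 into that of *Fth1* by the RefSeq start, 27 bases before an *Ncoa4* start and 172 before a *Tfrc* start. It occurred in 4 of 15 member windows and in 17.5% of all 32851 windows.

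CCAAT occurred in 4 of 15 member windows, of *Fth1*, *Ftl1*, *Steap3* and *Tfrc*, and in 37.4% of all windows. TGACNNNGC occurred in 1 member window, of *Ncoa4*, and in 12.4% of all windows. It is shown because it was the only match among the member windows.
Ncoa4, chr14:32165735-32165764, plus strand: aggcggggcgTGACCTGGCcggtagggtat
A match of letters is a description and no binding was measured. The iron-responsive elements of *Tfrc* and the ferritins are not printed, and the array probes were not placed on the transcripts.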

How the data were processed

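Whole blood RNA was labelled in duplicate and hybridized to 12 arrays. Per the file headers, the intensity values are average bead signals per probe and array with a detection p-value each; many are below 0, so background had been subtracted, but arrays had not been brought to a common scale. The deposited log2 values were, per the authors' methods, variance-stabilized and quantile normalized in lumi, and were used as an alternative. Neither the version of lumi nor that of the scanner software is given in the sources used here.

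Raw signals were normalized by neqc in limma 3.58.1 under R 4.3.3 (normal-exponential background correction from the detection p, offset 16, quantile normalization, log2). A probe was kept, and is called measurable or above background, if at least 3 of 12 arrays detected it at p under 0.01. After averaging both arrays of a mouse, lmFit and eBayes gave the genotype difference without covariates. The Benjamini-Hochberg adjustment ran over the 5498 kept probes, with a threshold of 0.05. The brightest kept probe stands for a gene, and probes were named from the platform annotation where it gave exactly 1 symbol: 34885 had 1, 18 several and 10378 none. Marker lists are given as the median over genes of the log2 difference from the WT mean, and as the sum of linear intensities. The number of arrays limits precision.

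The 8 genes, the gene lists, the tests and the alternatives were chosen with earlier results of these data known. Named from the lists were genes past the threshold and the 2 brightest measurable genes of each list; the most similar genes were those with the highest Pearson's r to the member whose brightest probe varied most. *Tfrc* relative to red cell markers was planned and could not be computed. Alternatives were the authors' log2 values, other background correction, offsets, normalization, filters, technical arrays and tests, mouse weights, the letter as a block, and each mouse left out in turn. Motifs were searched in RefSeq promoter windows (GRCm38.p6). Python 3.11.15 with matplotlib 3.10.9 drew the figures.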

Additional observations from a re-analysis of the deposited data

How the results depend on the processing

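The count of 0 member probes called held in 17 of 20 settings. It was 1 with the authors' log2 values (*Ftl1*), 5 with mouse weights, whose estimate did not converge (*Ftl1*, 3 probes of *Ncoa4*, 1 of *Blvrb*), and 0 to 2 when 1 mouse was left out. Over the whole array, 150 probes were called with all mice; the count was 85 without further background correction, 86 without a filter, 47 with detection on all 12 arrays, 83 with the first technical arrays, 471 with all arrays and the mouse as a random block, 4 by the methods' analysis of variance, 259 with a trended robust prior, 1761 with mouse weights and 40 to 344 without 1 mouse. The 1 other iron and heme gene called became 2 with the authors' values, 2 with an offset of 50, 0 with the first technical arrays, 4 with the random block, 0 by analysis of variance, 2 with the trended prior, 14 with mouse weights, 4 by a 1.5-fold threshold and 0 to 3 without 1 mouse. The causes were not tested.

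Direction reversed for *Pcbp1* (-0.12, first technical arrays) and for *Steap3* (-0.37, second technical arrays, and -0.042 without knockout mouse B, within a range of -0.042 to 0.23 when 1 mouse was left out). *Ftl1*, *Ncoa4*, *Blvrb* and *Snx3* kept theirs in all settings run. *Ftl1* relative to *Fth1* was 0.24 to 0.38 in 13 settings, and its p, which cannot go under 0.1, says nothing about stability. Same-lettered mice correlated at 0.18, -0.18 and 0.18 in their deviations from the group means. Mice of unlike letters correlated at -0.30 to 0.21, a range that holds the same-letter values. Deviations of so few mice sum to 0 within a group, so the check cannot tell whether a letter ties mice together. With the letter as a replicate block, 111 probes, 0 member probes and 0 other iron and heme genes were called. A block by BeadChip and *Tfrc* relative to red cell markers were not run. Signal near background limits *Steap3* and *Pcbp1*, and the end of the scale limits *Fth1*.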
